A study of Mus musculus with 46 samples.

Results

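The nuclear genes for mitochondrial ribosomal proteins were followed in polyA RNA of perfused adult mouse hearts. Genes of the count table entered by name, as Mrpl or Mrps with a number and at most 1 letter, when their mean reached 1 CPM (counts scaled to library size) in at least 1 library kit. Of 55359 genes, 78 carried such a name and 77 were kept, 48 named for the large and 29 for the small subunit. At the limit, 76 passed in each kit and 75 in both. Mrpl53 had 0 reads in all 46 libraries and stayed outside. Nearest the limit inside it were Mrpl23, at 0.638 CPM with NEBNext and 2.98 CPM with QuantSeq, Mrps36, at 19.4 and 5.16 CPM, and Mrps10, at 23.2 and 15.6 CPM. Mrps18b averaged 29.0 CPM with NEBNext but 0.303 CPM with QuantSeq. Rows of processed pseudogenes lie beside Mrpl23, Mrpl27, Mrpl48 and Mrps36, so the values of these genes are uncertain.

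All mice carried Myh6MCM Tg/0, a tamoxifen-inducible Cre driven in cardiomyocytes, and received 100 µL of a 4 mg/mL tamoxifen solution a day for 4 days at 6 to 8 weeks of age. In the NEBNext time course, Lmna F/F hearts, whose transgene the labels spell My6MCM, were compared with Lmna +/+ hearts, called wild type here. There were 4 F/F and 5 wild-type libraries 1 week after tamoxifen, 2 labelled F/F and 3 wild type at 11 days, and 5 F/F and 7 wild type at 2 weeks. The QuantSeq set, all 2 weeks after tamoxifen, held Lmna F/F and Lmna F/+ hearts, each with cGas +/+ (6 F/F and 6 F/+ libraries) or cGas null/null (4 F/F and 4 F/+ libraries). Its controls therefore carried 1 floxed Lmna allele, open to this Cre, and 1 wild-type allele, while the NEBNext controls carried no floxed allele. Lmna encodes the A-type lamins that line the inner nuclear membrane. This Cre acts in cardiomyocytes, while the RNA came from whole hearts.

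The mitochondrial ribosome translates the few proteins encoded by mitochondrial DNA, all of them core subunits of the respiratory chain and ATP synthase. Its RNAs are encoded in the mitochondrion, but its proteins are made in the cytosol from nuclear genes and imported. Some descend from bacterial ribosomal proteins and others exist only in mitochondria. Cardiomyocytes are densely packed with mitochondria, and inherited defects of mitochondrial translation can present as cardiomyopathy.

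Libraries held 8477358 to 25856892 counts with NEBNext and 22099181 to 33993289 with QuantSeq, and a member had a median of 1359 and 921 reads per library. Lmna averaged 33.3 ± 4.38 normalised CPM in F/F and 59.0 ± 9.21 in wild type at 1 week (SD, n = 4 and 5), and 85.2 ± 26.9 against 113 ± 7.02 at 2 weeks (n = 5 and 7). It did not pass edgeR's test at either time (adjusted p = 0.314 and 0.0983), though at 1 week the groups did not overlap (27.0 to 36.9 in F/F, against 44.9 to 67.7 in wild type). At 2 weeks they overlapped (42.2 to 108 in F/F, against 105 to 125 in wild type). At 11 days the 2 libraries labelled F/F, at 58.3 and 58.4, lay inside the wild-type range of 52.0 to 118, so that arm is called labelled F/F below. In QuantSeq, Lmna averaged 20.5 in F/F and 22.0 in F/+ with cGas, and 22.2 and 23.7 without it, so these counts did not separate the genotypes. Cgas averaged 0.875 in cGas null and 2.88 in cGas +/+ hearts of F/F genotype, and 0.564 and 1.45 in those of F/+ genotype. Neither passed the test (adjusted p = 0.26 and 0.993). Each sample title ends in its own number after the word heart, but the labels do not say that this number names a mouse. If libraries shared a mouse, the p-values would describe only how these libraries vary, which may be technical in part.

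Levels between genes were compared on the deposited TPM values of the 2-week NEBNext hearts, a per-length scale. Mrpl42, a large-subunit protein found only in mitochondria, led at 783 ± 175 TPM in F/F and 911 ± 147 TPM in wild type (SD, n = 5 and 7). Mrpl30 followed at 442 ± 46.4 TPM in F/F and 525 ± 68.4 TPM in wild type. Mrpl12, part of the stalk that recruits translation factors, had 345 ± 66.0 TPM in F/F and 365 ± 55.4 TPM in wild type. In the small subunit Mrps21 was the most abundant, at 366 ± 52.4 TPM in F/F and 455 ± 73.3 TPM in wild type. Mrps24 had 214 ± 30.7 TPM in F/F and 247 ± 22.1 TPM in wild type, and Mrps23 had 237 ± 42.2 and 238 ± 33.1 TPM, so the 2 neighbours in this order did not differ beyond their spread. At the low end, Mrpl23 had 1.32 ± 0.354 TPM in F/F and 1.38 ± 0.649 TPM in wild type. The summed large-subunit mRNA reached 5920 ± 501 TPM in F/F, against 6390 ± 550 TPM in wild type, and the summed small-subunit mRNA was 2440 ± 318 and 2620 ± 248 TPM. The ratio of the sums came to 2.44 ± 0.165 in F/F, against 2.44 ± 0.0739 in wild type. In wild type, single members ranged from 1.38 to 911 TPM, and the ratio of the subunits' sums differed by less than its spread between the genotypes.

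At 2 weeks after tamoxifen, most mitoribosomal protein mRNAs were lower in F/F than in wild-type hearts and none was called higher. By edgeR's quasi-likelihood test with Benjamini-Hochberg adjustment over all genes, 49 of 77 members were lower (adjusted p under 0.05), against 13.0% of all 15627 genes tested. These were 31 of 48 large-subunit and 18 of 29 small-subunit genes. The median log2 fold change was -0.46 over the members, -0.48 over the large and -0.44 over the small subunit, against 0.04 over all genes, and 76 of 77 members were negative. At an unadjusted p under 0.05, 59 were lower and 0 higher, without the share of all genes at that threshold given here. DESeq2 called 53 members lower and 0 higher, against 2244 lower of all 15627 genes.

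Each library was also summarised by a score, the mean of log2(normalised CPM + 1) over a subunit's genes. The large-subunit score stood at 5.76 ± 0.159 in F/F (range 5.50 to 5.90), against 6.19 ± 0.109 in wild type (6.09 to 6.4; SD, n = 5 and 7). The small-subunit score stood at 5.36 ± 0.159 in F/F (5.08 to 5.48), against 5.78 ± 0.116 in wild type (5.67 to 6.00). In both subunits every F/F library lay below every wild-type library. The difference between the subunits' scores came to 0.395 ± 0.0548 in F/F, against 0.402 ± 0.0364 in wild type, which differ by less than their spread. The median log2 ratio of a single F/F library to the wild-type mean was -0.39, -0.32, -0.73, -0.48 and -0.35 in replicates 1 to 5. Replicate 3 was lowest, and replicate numbers here only name libraries.

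**Figure D1:**
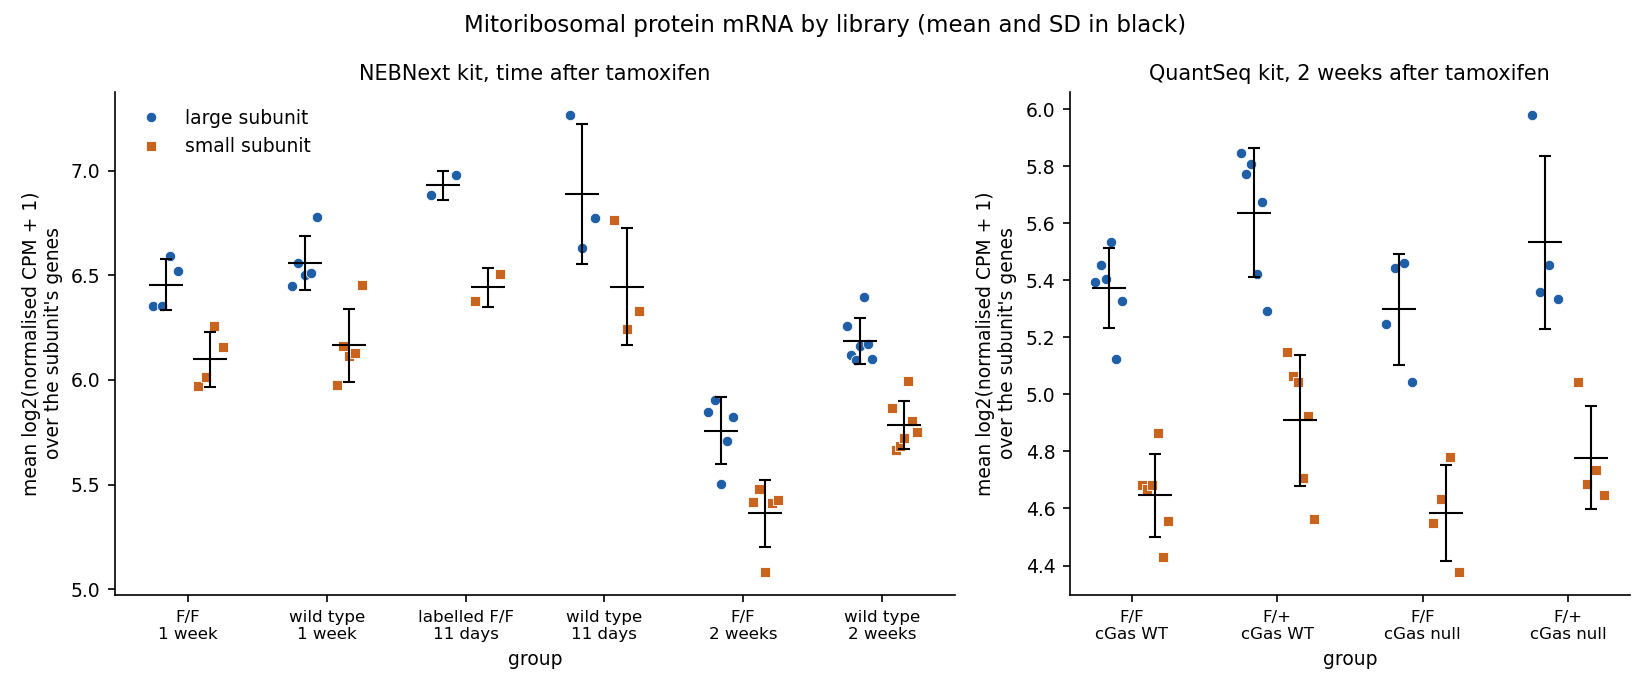
Mean log2(normalised CPM + 1) over the large-subunit genes (blue circles) and the small-subunit genes (orange squares) in each library, by group, with the mean and SD in black, for NEBNext (left) and QuantSeq (right). At 2 weeks in NEBNext the 5 F/F libraries lie at 5.50 to 5.90 for the large subunit, all below the 7 wild-type libraries at 6.09 to 6.4, and the groups overlap at 1 week, at 11 days and in QuantSeq.

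The size of this shift depended on the scaling, and its direction relative to other genes did not change under any scaling tried. TMM scale factors ran from 1.04 to 1.49 in F/F, against 0.978 to 1.12 in wild type at 2 weeks. With library totals alone the members' median was -0.21 and that of all genes 0.29, with 14 members lower and 0 higher. All genes then split into 822 lower and 4369 higher, against 2025 lower and 2537 higher with TMM. The members' median minus that of all genes was -0.50 with library totals and -0.49 with TMM. limma on log2(deposited TPM + 1) called 11 lower and 0 higher, with the members' median at -0.15 and that of all genes at 0.21. The counts below are therefore changes relative to the bulk of genes in the same libraries, and the members that kept their call in all 11 alternative settings were 3, namely Mrpl14, Mrpl55 and Mrpl9.

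**Figure D2:**
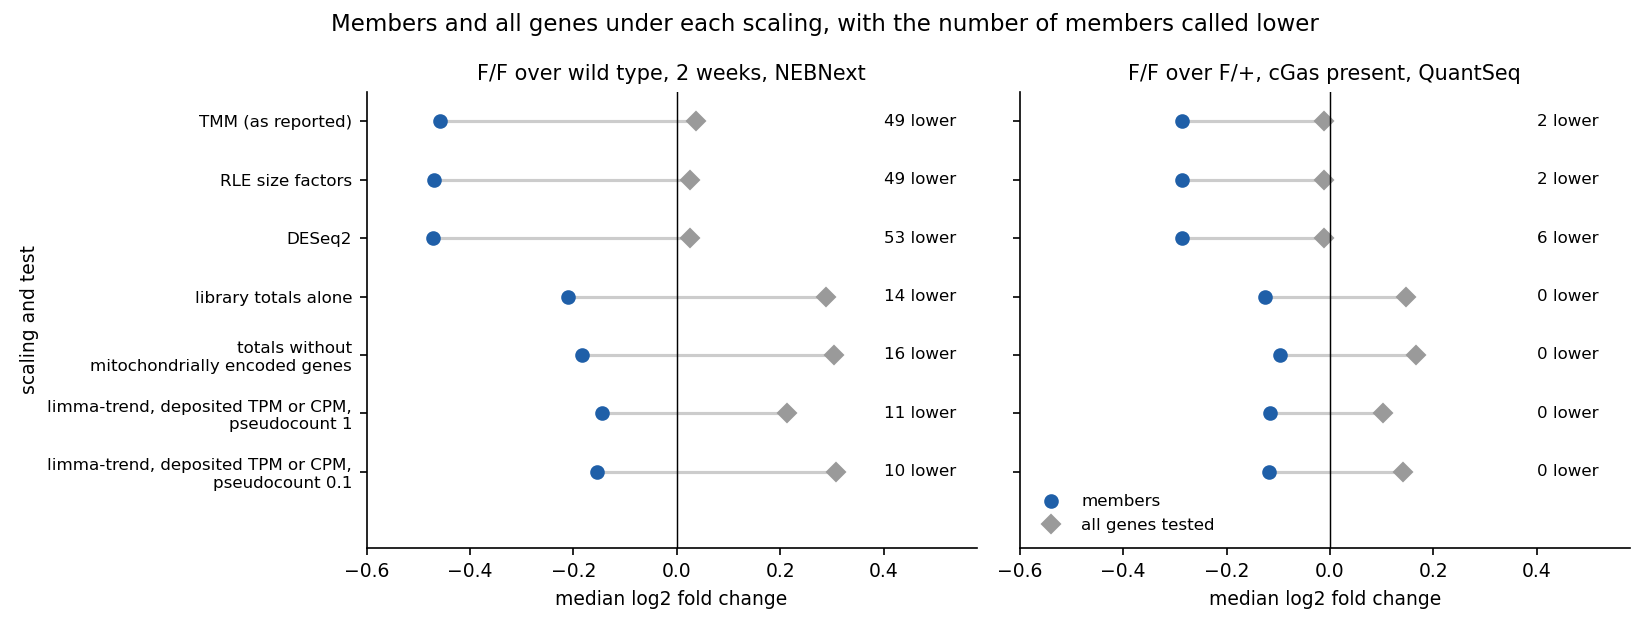
Median log2 fold change of the members (blue circles) and of all genes tested (grey diamonds) under each scaling and test, for F/F over wild type at 2 weeks (left) and F/F over F/+ with cGas (right), with the number of members called lower printed beside each. The 2-week members' median runs from -0.47 to -0.15 and stays to the left of all genes in each row, while the count of calls runs from 10 to 53.

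Among the large-subunit genes with the smallest adjusted p, Mrpl55 (ENSMUSG00000036860.15), a mitochondria-specific protein, had 113, 110, 61.7, 87.3 and 98.4 normalised CPM in the 5 F/F libraries. In the 7 wild-type libraries it had 149 at the lowest, 170 at the median and 197 at the highest. The groups did not overlap, and Mrpl55 was 1.77-fold lower in F/F (log2 fold change -0.82 ± 0.13 SE, edgeR adjusted p = 7.1e-05). Mrpl14 (ENSMUSG00000023939.8), the counterpart of a bacterial protein at the subunit interface, had 69.2, 75.4, 61.4, 59.2 and 68.1 in F/F, against 104, 120 and 146 at the lowest, median and highest of wild type. It showed the largest change of any member, 1.89-fold lower in F/F (log2 -0.92 ± 0.16, edgeR adjusted p = 0.000168). Mrpl9 (ENSMUSG00000028140.14), also of bacterial descent, had 69.5, 66.4, 57.8, 73.2 and 78.1 in F/F and 102, 111 and 117 in wild type. Its F/F libraries all lay below wild type, 1.68-fold on average (log2 -0.75 ± 0.16, edgeR adjusted p = 0.00133). In a 2-sided exact permutation test each of these 3 genes reached 0.00126, the smallest p that 5 against 7 libraries allow. This p restates the lack of overlap in genes picked from these same libraries and adds no support. The permutation also took no account of sex or pool.

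Mrpl39, a mitochondria-specific subunit, had 60.4, 56.7, 34.4, 40.4 and 42.3 in F/F, against 63.9, 82.6 and 93.4 at the lowest, median and highest of wild type. Mrpl18, which has a bacterial counterpart that binds 5S rRNA, had 118, 108, 75.5, 98.9 and 99.9 in F/F and 147, 159 and 191 in wild type. Neither gene's groups overlapped (log2 -0.62 ± 0.11, adjusted p = 0.000261, and -0.67 ± 0.13, adjusted p = 0.000506, edgeR). Mrpl34, of bacterial descent, had 51.5, 64.0, 51.5, 67.4 and 73.8 in F/F and 68.0, 82.5 and 113 in wild type. Here 1 F/F library reached into the wild-type range (log2 -0.66 ± 0.14, edgeR adjusted p = 0.000877).

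In the small subunit, Mrps35 (ENSMUSG00000040112.10), found only in mitochondria, had 84.0, 54.9, 36.9, 67.0 and 59.6 normalised CPM in F/F. Wild type had 92.9 at the lowest, 106 at the median and 119 at the highest. Mrps35 was 1.8-fold lower in F/F with no overlap (log2 -0.84 ± 0.17, edgeR adjusted p = 0.000667), though the fit to the libraries of pool KIUC033 alone did not call it (log2 -0.56, adjusted p = 0.141). Mrps5, of bacterial descent, had 24.2, 26.3, 20, 23.3 and 24.0 in F/F, against 31.0, 33.6 and 36.9 in wild type. Its F/F libraries were closely grouped and all below wild type (log2 -0.49 ± 0.11, edgeR adjusted p = 0.0014). Mrps9, also of bacterial descent, had 120, 91.8, 58, 79.4 and 88.1 in F/F and 126, 150 and 156 in wild type, again without overlap (log2 -0.64 ± 0.15, edgeR adjusted p = 0.00281). Mrps24, likewise, had 98.1, 109, 87.2, 102 and 104 in F/F and 136, 150 and 161 in wild type. It too was separated (log2 -0.61 ± 0.15, edgeR adjusted p = 0.00361). Mrps21, the most abundant small-subunit mRNA, had 100, 114, 62.3, 75.2 and 76.8 in F/F and 96.7, 146 and 164 in wild type, and its groups overlapped (log2 -0.53 ± 0.13, edgeR adjusted p = 0.00342).

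**Figure D3:**
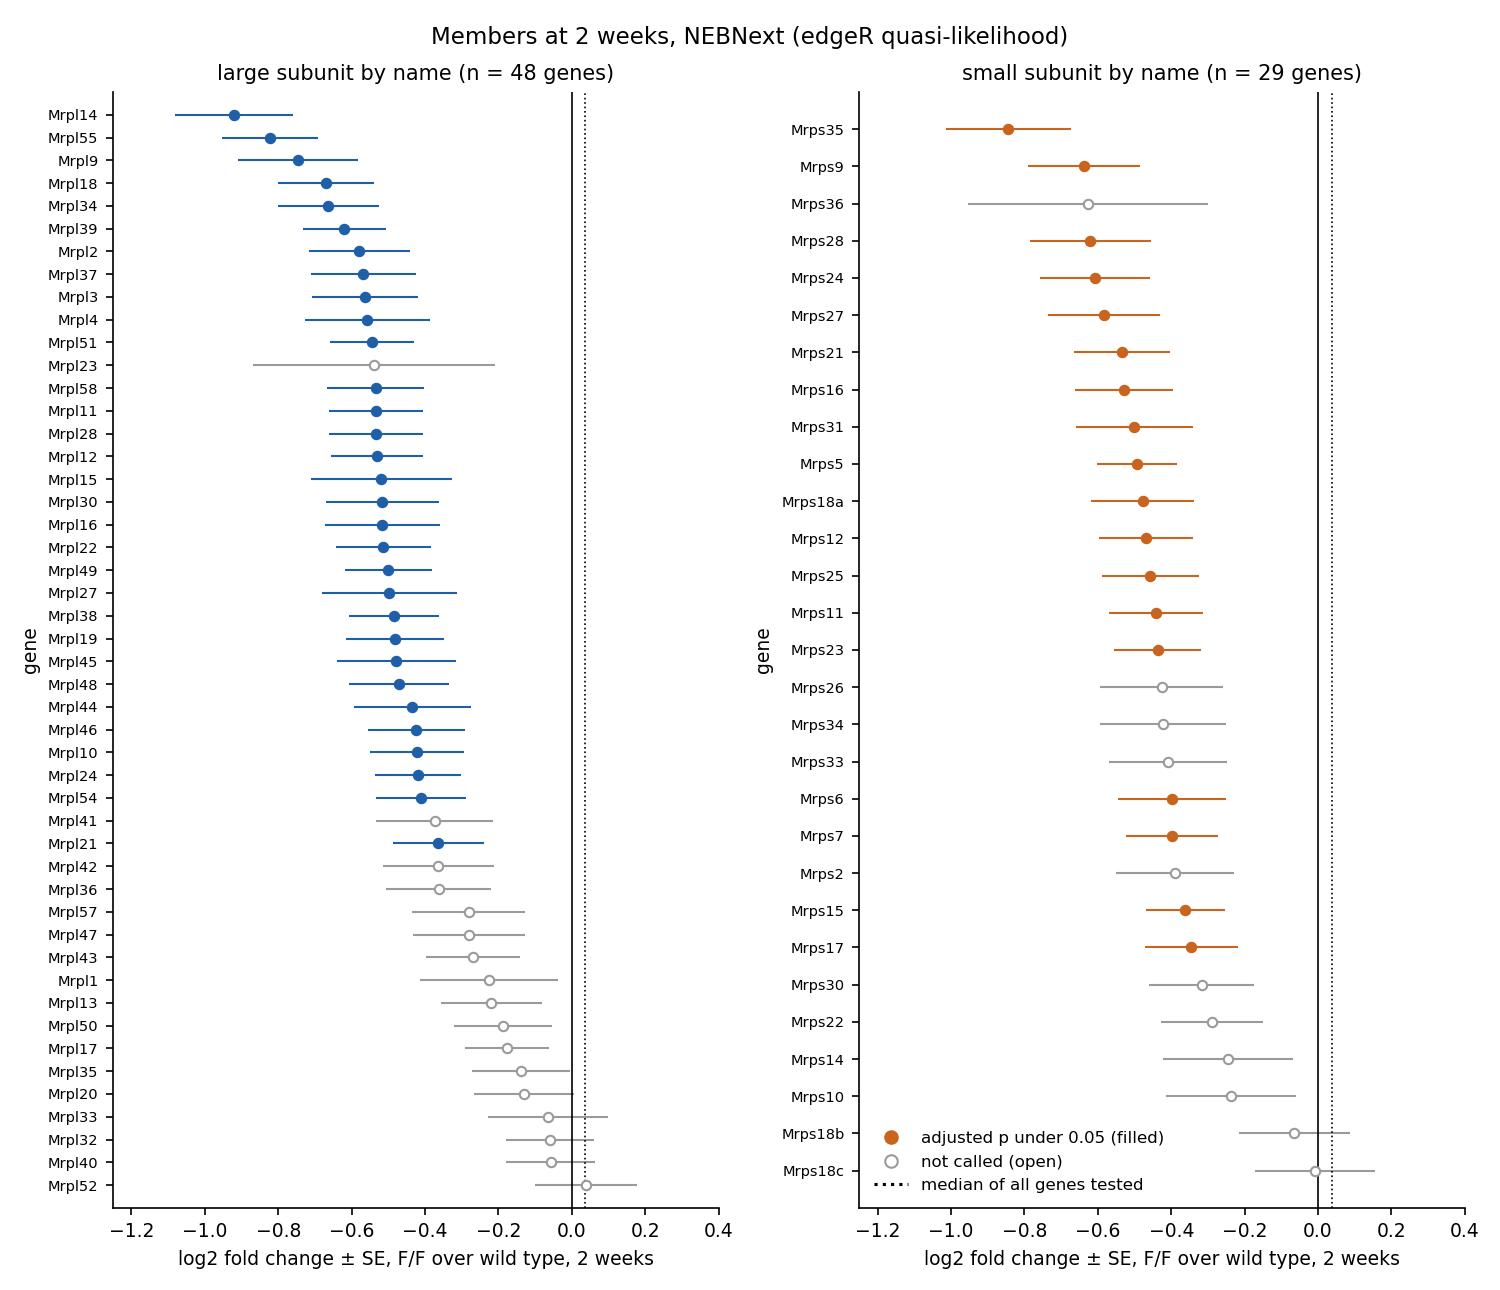
Log2 fold change ± SE of each member, F/F over wild type at 2 weeks, for 48 large-subunit genes (left) and 29 small-subunit genes (right), filled where edgeR's adjusted p was under 0.05, with the median of all genes dotted. All filled points lie left of 0, Mrpl14 at -0.92 and Mrps35 at -0.84 lead their panels, and Mrpl52 at 0.04 is the one member to the right of 0.

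Members with known roles mostly followed the same direction. Mrpl12, which in human cells also binds the mitochondrial RNA polymerase, had 194, 226, 174, 227 and 240 normalised CPM in F/F, against 249, 293 and 343 in wild type. It was lower without overlap (log2 -0.53 ± 0.13, edgeR adjusted p = 0.00253). Its stalk partner Mrpl10 had 46.2, 49.3, 51.5, 61.4 and 56.7 in F/F and 51.1, 68.5 and 84.3 in wild type, with overlap (log2 -0.42 ± 0.13, adjusted p = 0.0141). Mrpl58, also called ICT1, releases stalled peptides and is a structural subunit too. It had 75.7, 81.7, 53.1, 71.8 and 70.5 in F/F and 92.5, 96.9 and 117 in wild type, and did not overlap (log2 -0.53 ± 0.13, edgeR adjusted p = 0.00342). Mrpl45, which ties the ribosome to the inner membrane, had 84.2, 76.3, 47.9, 68.4 and 74.0 in F/F and 80.9, 90.5 and 146 in wild type (log2 -0.48 ± 0.16, edgeR adjusted p = 0.0276). Mrpl44, whose human gene is mutated in a form of infantile cardiomyopathy, had 61.4, 58.8, 50.7, 67.1 and 67.9 in F/F and 54.2, 81.0 and 99.9 in wild type. Its groups overlapped widely and it passed narrowly (log2 -0.43 ± 0.16, edgeR adjusted p = 0.0424).

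Mrps18a and Mrps30 carry small-subunit names but sit in the large subunit. Mrps18a passed (log2 -0.48 ± 0.14, edgeR adjusted p = 0.0121), while Mrps30 had 42.5, 38.6, 34.8, 38.3 and 35.4 normalised CPM in F/F and 37.5, 47.7 and 57.7 in wild type and did not (log2 -0.32 ± 0.14, adjusted p = 0.096). Mrps36, known from human cells as part of the 2-oxoglutarate dehydrogenase complex rather than the ribosome, did not pass (log2 -0.63 ± 0.33, adjusted p = 0.155). By class, 19 of 28 conserved and 12 of 19 mitochondria-specific large-subunit genes were lower, with medians of -0.51 and -0.43. In the small subunit, 12 of 16 conserved and 5 of 10 mitochondria-specific genes were lower, with medians of -0.42 and -0.43. No class had a member called higher.

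Of the 77 members, 28 were not called, and a few showed values near no change. Mrpl52, a mitochondria-specific large-subunit gene, had 48.6, 79.9, 66.6, 67.2 and 75.1 normalised CPM in F/F and 55.6, 61.7 and 72.1 in wild type (log2 0.04 ± 0.14, edgeR adjusted p = 0.861). On the deposited TPM scale it had 315 ± 80.8 in F/F and 221 ± 26.5 in wild type, and limma's adjusted p was 0.0571. Mrps18c, a homologue of the bacterial S18 protein like Mrps18a and Mrps18b, had 29.5, 26.6, 18.8, 17.2 and 20.7 normalised CPM in F/F, against 18, 26.9 and 27.9 in wild type. Neither it (log2 -0.01 ± 0.16, edgeR adjusted p = 0.975) nor Mrps18b (-0.06 ± 0.15, adjusted p = 0.785) passed. Of the 3 members with this homology, only Mrps18a was called, and the difference between them was not tested. Mrpl42, the most abundant mRNA of the family, had 400, 318, 166, 169 and 228 normalised CPM in F/F and 251, 395 and 478 in wild type. It was spread widely in F/F and did not pass (log2 -0.36 ± 0.15, edgeR adjusted p = 0.0731), nor did the scarce Mrpl23 (log2 -0.54 ± 0.33, adjusted p = 0.231).

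In 17 members every F/F library lay below every wild-type library, against 5.68% of all genes tested, and in 0 members the reverse held. Split by wild-type TPM, 16 of the 20 most abundant members were lower, 15 of the next 20, 14 of the next 20 and 4 of the last 17, which had 1.38 to 27.1 TPM. Across the 77 members, abundance and log2 fold change had Pearson's r of -0.239 and Spearman's rho of -0.308, as a description over genes of the same libraries. Both quantities use the same wild-type libraries, which by itself can give a negative correlation. A low TPM was not always a low count: Mrpl17 had 13.1 TPM in wild type and averaged 70.3 CPM with NEBNext. Why fewer of the last 17 were called was not tested.

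The 2-week libraries came from 2 pools named in the labels, and the shift was present in each. In pool KIUC033, with 2 F/F and 5 wild-type libraries, the members' median was -0.42. There 4 members were called lower, against 145 of all 13970 genes tested. In pool KIUC035, with 3 F/F and 2 wild-type libraries, the median was -0.54. There 41 members were called lower, against 2143 of all 15068 genes tested, so the calls of all genes differed between the pools too. Both medians were computed with that pool's libraries alone, and 73 of 77 members were negative in both pools. Leaving out each library in turn gave 34 to 48 members lower and 0 higher, and 29 of the 49 genes were called in all 12 of these fits.

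Markers of the heart's cell types moved in the same libraries. Of 10 cardiomyocyte markers 9 fell, with a median log2 fold change of -0.74, led by Tnni3 (-0.94), Ckm (-1.03) and Myl2 (-0.91). Their score, a mean of log2 values, spanned 11.8 to 12.7 in F/F, against 13.0 to 13.2 in wild type. All 6 macrophage markers rose (median 1.78), among them Adgre1 (1.77), Cd68 (2.32) and Lyz2 (2.03), with scores of 5.71 to 7.88 in F/F, against 5.09 to 5.55 in wild type. Of 6 fibroblast markers 5 rose (median 0.83), among them Col3a1 (2.11), Col1a1 (1.83) and Lum (0.92), with scores of 6.74 to 8.09, against 6.26 to 6.88. Among the remaining lists, 2 of 5 endothelial markers fell, and 2 of 4 T cell, 4 of 4 proliferation, 1 of 4 atrial (Nppa, 1.64) and 0 of 3 smooth muscle markers rose. Nppa went against the rest of its list, whose median was -0.67. The atrial markers Sln, Myl7 and Myl4 averaged lower in F/F and were not called. The atrial score varied widely, from 3.73 to 7.75 in F/F and from 3.06 to 7.7 in wild type. With library totals 7 cardiomyocyte markers and 0 endothelial markers fell, and the macrophage and fibroblast counts were 6 and 5 again. No cardiomyocyte, fibroblast or macrophage marker was at 0 reads in any library. In bulk hearts, fewer cells of a type and less RNA per cell cannot be told apart, and the part of cell makeup in the members' shift was not tested.

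Promoters of the family were read from RefSeq on GRCm38.p6, since a genome of the files' build, mm39, was not used here. Of the 77 members 68 had an entry, and Mrpl4, Mrpl13, Mrpl15, Mrpl19, Mrpl38, Mrpl54, Mrps28, Mrps34 and Mrps35 had none. The 250 bases upstream of the start were searched on both strands for GCGCANGCG (NRF1), CCGGAAGT (GABPA, the ETS factor also called NRF2), AAGATGGCG (YY1) and the E-box CACGTG. NRF1, GABPA and YY1 are textbook regulators of nuclear genes for mitochondria. NRF1's motif stood in 13 of 68 members (19.1%), against 5.86% of all 27025 genes with a promoter and 11.6% of the 11426 among them that were tested. GABPA's stood in 14.7% of members, 3.23% of all and 6.08% of tested genes, and YY1's in 2.94%, 0.71% and 1.26%. The E-box was in 7.35%, 6.86% and 9.71%. Any of the first 3 motifs was found in 25 of 68 members (36.8%), against 9.19% of all and 17.6% of tested genes. At 2 weeks, 16 of the 25 members with such a motif were lower (median log2 -0.47), and 26 of the 43 without one were (median -0.42). A match is a description of the letters, not of binding.

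The upstream 250 bases of 6 members are shown, 5′ to 3′ on the gene's strand, to set 4 members called lower at 2 weeks beside Mrps18c and Mrpl52, which did not pass. Capitals mark the NRF1 motif in Mrpl9 (chr3:94443086-94443335, plus strand), Mrpl39 (chr16:84735245-84735494, minus strand) and Mrpl45 (chr11:97315466-97315715, plus strand). They mark the GABPA motif, on either strand, in Mrpl18 (chr17:12916092-12916341, minus strand) and Mrps18c (chr5:100798509-100798758, plus strand). Mrpl52 (chr14:54426659-54426908, plus strand) held none of these 3 factors' motifs and has no capitals. E-boxes are not capitalised. In Mrpl9 and Mrpl39 the NRF1 matches on both strands overlap, and in Mrpl45 they stand at 2 separate places.
Mrpl9: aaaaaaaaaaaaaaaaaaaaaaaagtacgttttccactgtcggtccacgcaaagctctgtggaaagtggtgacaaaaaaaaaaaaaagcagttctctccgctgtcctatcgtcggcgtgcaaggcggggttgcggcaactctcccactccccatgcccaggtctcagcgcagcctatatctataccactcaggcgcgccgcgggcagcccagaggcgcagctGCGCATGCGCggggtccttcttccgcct
Mrpl39: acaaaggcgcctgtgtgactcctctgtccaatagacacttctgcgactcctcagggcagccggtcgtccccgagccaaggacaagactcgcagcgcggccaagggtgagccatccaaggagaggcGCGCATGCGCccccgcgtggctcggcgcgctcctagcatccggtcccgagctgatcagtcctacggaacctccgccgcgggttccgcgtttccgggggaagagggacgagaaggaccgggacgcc
Mrpl45: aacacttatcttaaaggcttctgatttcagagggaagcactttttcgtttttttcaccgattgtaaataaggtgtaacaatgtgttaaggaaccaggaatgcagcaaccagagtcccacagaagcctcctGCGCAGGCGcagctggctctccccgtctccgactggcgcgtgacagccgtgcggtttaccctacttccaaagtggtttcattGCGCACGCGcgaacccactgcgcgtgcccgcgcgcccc
Mrpl18: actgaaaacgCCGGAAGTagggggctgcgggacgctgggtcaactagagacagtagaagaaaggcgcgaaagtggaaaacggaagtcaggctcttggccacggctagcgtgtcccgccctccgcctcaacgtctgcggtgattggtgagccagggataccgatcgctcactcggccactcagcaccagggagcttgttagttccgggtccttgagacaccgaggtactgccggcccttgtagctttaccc
Mrps18c: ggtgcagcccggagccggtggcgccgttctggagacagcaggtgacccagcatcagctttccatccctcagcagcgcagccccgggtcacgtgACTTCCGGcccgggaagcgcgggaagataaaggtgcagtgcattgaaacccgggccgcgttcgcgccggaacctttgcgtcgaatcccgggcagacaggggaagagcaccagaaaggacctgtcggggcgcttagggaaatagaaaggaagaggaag
Mrpl52: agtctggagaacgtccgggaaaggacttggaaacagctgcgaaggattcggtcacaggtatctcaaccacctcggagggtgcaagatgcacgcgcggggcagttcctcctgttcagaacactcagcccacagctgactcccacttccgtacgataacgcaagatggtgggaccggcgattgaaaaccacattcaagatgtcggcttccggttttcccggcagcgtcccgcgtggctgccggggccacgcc
The GABPA motif was thus present both in Mrpl18, which was lower at 2 weeks, and in Mrps18c, which was not called.

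Genes that work with the mitoribosome were taken from lists and tested in the same fit at 2 weeks. Of 5 mitoribosomal proteins with other symbols 3 fell and 0 rose, among them Dap3, a small-subunit GTP-binding protein (log2 -0.52 ± 0.13, edgeR adjusted p = 0.00308), Aurkaip1 (-0.47) and Gadd45gip1 (-0.55). Of 26 assembly factors 15 fell, with a median of -0.48. They included Tfb1m, which methylates the small ribosomal RNA (log2 -0.80 ± 0.14, edgeR adjusted p = 0.000156), Mtg1, a GTPase of large-subunit assembly (-0.73), and Mrm2, which methylates the large ribosomal RNA (-0.70). Tfb1m averaged 6.35 ± 0.456 normalised CPM in F/F and 11.4 ± 1.59 in wild type. Of 15 translation factors 8 fell (median -0.46), led by Taco1, an activator of COX1 translation (-0.81), with Gfm2 (-0.59), which recycles ribosomes, and the membrane insertase Oxa1l (-0.67). Of 17 mitochondrial tRNA synthetases 7 fell (median -0.40), Fars2 and Cars2 among them. Of 12 genes of mitochondrial DNA transcription and replication 5 fell (median -0.38), among them the elongation factor Tefm (-0.68), the RNA polymerase Polrmt (-0.49) and the helicase Twnk (-0.52). None of these lists had a member that rose. With library totals the counts lower were 0 of the 5 proteins, 8 assembly factors, 4 translation factors, 4 synthetases and 1 of the 12, all 5 medians stayed negative (-0.23 to -0.13), and 0 rose.

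Other mitochondrial and ribosomal genes gave a frame for these values. Of 85 tested nuclear genes of the respiratory chain 72 fell (median -0.61). Of 81 cytosolic ribosomal protein genes 8 rose and 1 fell, with a median of 0.24. With library totals 51 respiratory chain genes fell (median -0.36), and 37 cytosolic ribosomal genes rose and 1 fell (median 0.50). Under each scaling the members' median had the sign of the respiratory chain's and not that of the cytosolic ribosome. Of the 13 mitochondrially encoded mRNAs 7 were tested and 0 were called by edgeR, with a median of -0.21 (0.05 with totals that leave out these genes) 1 at an unadjusted p under 0.05 and 0 called by limma. Among 9 regulators of mitochondrial gene promoters, Myc (log2 2.18 ± 0.34, edgeR adjusted p = 6.87e-05) and Pprc1 (0.84 ± 0.21, adjusted p = 0.0034) rose, while 2 fell, Esrra among them (-0.79 ± 0.17, adjusted p = 0.00104). With library totals 4 of these 9 rose and 1 fell (median 0.42), and with limma likewise 4 and 1.

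At 1 week no mitoribosomal gene was called between F/F and wild-type hearts. edgeR called 0 of 77 in either direction, against 0.0256% of all genes tested, and DESeq2 and limma called 0. At an unadjusted p under 0.05, 3 were lower and 0 higher, without the share of all genes at that threshold given here. The median log2 fold change was -0.06 over the large and -0.03 over the small subunit, and with library totals the members' median turned to 0.11, with all genes at 0.15. The large-subunit score came to 6.46 ± 0.121 in F/F, against 6.56 ± 0.128 in wild type, and the small-subunit score was 6.10 ± 0.132 and 6.17 ± 0.174 (SD, n = 4 and 5). The groups overlapped in both. The members' median log2 ratio of a single F/F library to the wild-type mean was -0.22, -0.19, 0.08 and -0.04 in replicates 1 to 4, below 0 in 3 of the 4. Mrpl55 had 212, 168, 225 and 217 normalised CPM in F/F and 198, 213, 204, 205 and 264 in wild type. Mrpl14 had 122, 109, 154 and 123 in F/F and 164, 124, 154, 121 and 108 in wild type. Mrpl9 had 95.6, 92.2, 107 and 76.2 in F/F and 79.6, 100, 81.2, 95.2 and 86.4 in wild type. The 3 members with the firmest calls at 2 weeks thus overlapped at 1 week.

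At 11 days, edgeR called 0 of 77 members between labelled F/F and wild-type hearts, against 0% of all genes. At an unadjusted p under 0.05, 2 were lower and 0 higher, without the share of all genes given here, and DESeq2 and limma called 0. The medians were -0.02 for the large and 0.03 for the small subunit. The large-subunit score was 6.93 ± 0.0681 in labelled F/F and 6.89 ± 0.334 in wild type (SD, n = 2 and 3). With 2 against 3 libraries an exact permutation test cannot go below 0.1. Without wild-type replicate 1, 4 members were called higher, against 114 higher and 121 lower of all 15674 genes tested.

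The F/F effect at 2 weeks was compared with that at 1 week by an interaction term, which also compares the labels' pools, as time and pool cannot be told apart. The effect was lower at 2 weeks for 11 of 77 members and higher for 0, against 5.88% of all genes lower. At an unadjusted p under 0.05, 35 members passed, without the share of all genes at that threshold given here. The median difference of log2 effects was -0.42. It was -0.88 for Mrpl14 (edgeR adjusted p = 0.0164), -0.85 for Mrpl9 (0.0217) and -0.76 for Mrpl55 (0.0119). The other 8 were Mrpl2, Mrpl34, Mrpl38, Mrps11, Mrps12, Mrps16, Mrps23 and Mrps27, from -0.71 to -0.57. The count rested on single libraries. It was 21 without wild-type replicate 5 of 1 week, and 2 without F/F replicate 3 of 1 week or without wild-type replicate 6 of 2 weeks. It was 7 and 5 without wild-type replicates 1 and 2 of 1 week, 3 and 4 without F/F replicates 2 and 3 of 2 weeks, and 6 without wild-type replicate 5 or 7 of 2 weeks.

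In QuantSeq hearts with cGas, cGAS being the cytosolic DNA sensor upstream of STING, nearly all members were slightly lower in F/F than in F/+ and few passed the test. edgeR called 2 of 77 lower and 0 higher, against 0.891% of 14812 genes lower. The medians were -0.28 for the large and -0.31 for the small subunit, against -0.01 for all genes, and 74 of 77 members were negative. At an unadjusted p under 0.05, 22 members were lower, against 8.05% of all genes. DESeq2 called 6 lower and limma 0. The large-subunit score averaged 5.37 ± 0.140 in F/F, against 5.64 ± 0.226 in F/+, and the small-subunit score 4.65 ± 0.145 and 4.91 ± 0.229 (SD, n = 6 each), with overlap. With library totals the members' median was -0.13 and that of all genes 0.15, with 0 members called.

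The 2 called members were Mrps35 and Mrpl45. Mrps35 had 24.2, 32.9 and 38.7 normalised CPM at the lowest, median and highest of the F/F libraries and 38.0, 50.2 and 61.5 in F/+ (log2 -0.62 ± 0.18, edgeR adjusted p = 0.0459). Mrpl45 had 38.5, 44.4 and 55.0 in F/F and 53.4, 70.1 and 80.8 in F/+ (log2 -0.56 ± 0.16, edgeR adjusted p = 0.0473). In both genes the ranges of the groups just touched. Mrpl55 had 29.8, 41.0 and 55.2 in F/F and 39.6, 63.0 and 92.4 in F/+, with F/+ spread widely, and did not pass. Mrpl16, of bacterial descent, had 12.8, 16.1 and 27.6 in F/F and 16, 32.9 and 39.7 in F/+ and just missed (log2 -0.73 ± 0.22, edgeR adjusted p = 0.0557). Mrps18a had 12.1, 15.7 and 20 in F/F and 16, 22.2 and 30.7 in F/+ (log2 -0.53 ± 0.16, adjusted p = 0.057, edgeR). Mrpl15, Mrpl3, Mrpl23, Mrps9, Mrps15 and Mrps36 came next in their subunits, with log2 fold changes of -0.73 to -0.35, and none passed. In 0 of 77 members did every F/F library lie below every F/+ library, against 0.682% of all genes. The members' median log2 ratio of a single F/F library to the F/+ mean was -0.27, -0.21, -0.24, -0.11, -0.50 and -0.34 in replicates 1 to 6, lowest in replicate 5.

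The calls of Mrps35 and Mrpl45 were not stable. Each was called in 5 of 10 alternative settings and in 3 of 12 fits that left out 1 library. The count of called members was 0 without F/+ replicate 1, 2, 3 or 5 or F/F replicate 1, 2, 3 or 5, 1 without F/F replicate 6, 4 without F/+ replicate 4, 6 without F/F replicate 4 and 7 without F/+ replicate 6. In these libraries 5 of 6 macrophage and 1 of 6 fibroblast markers rose, with macrophage scores of 4.84 to 5.95 in F/F and 4.17 to 4.56 in F/+. Of 10 cardiomyocyte markers 0 were called by edgeR (5 at an unadjusted p under 0.05), with a median of -0.41, and 3 of 4 proliferation markers rose (median 1.06). Their part in the members' shift was not tested.

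**Figure D4:**
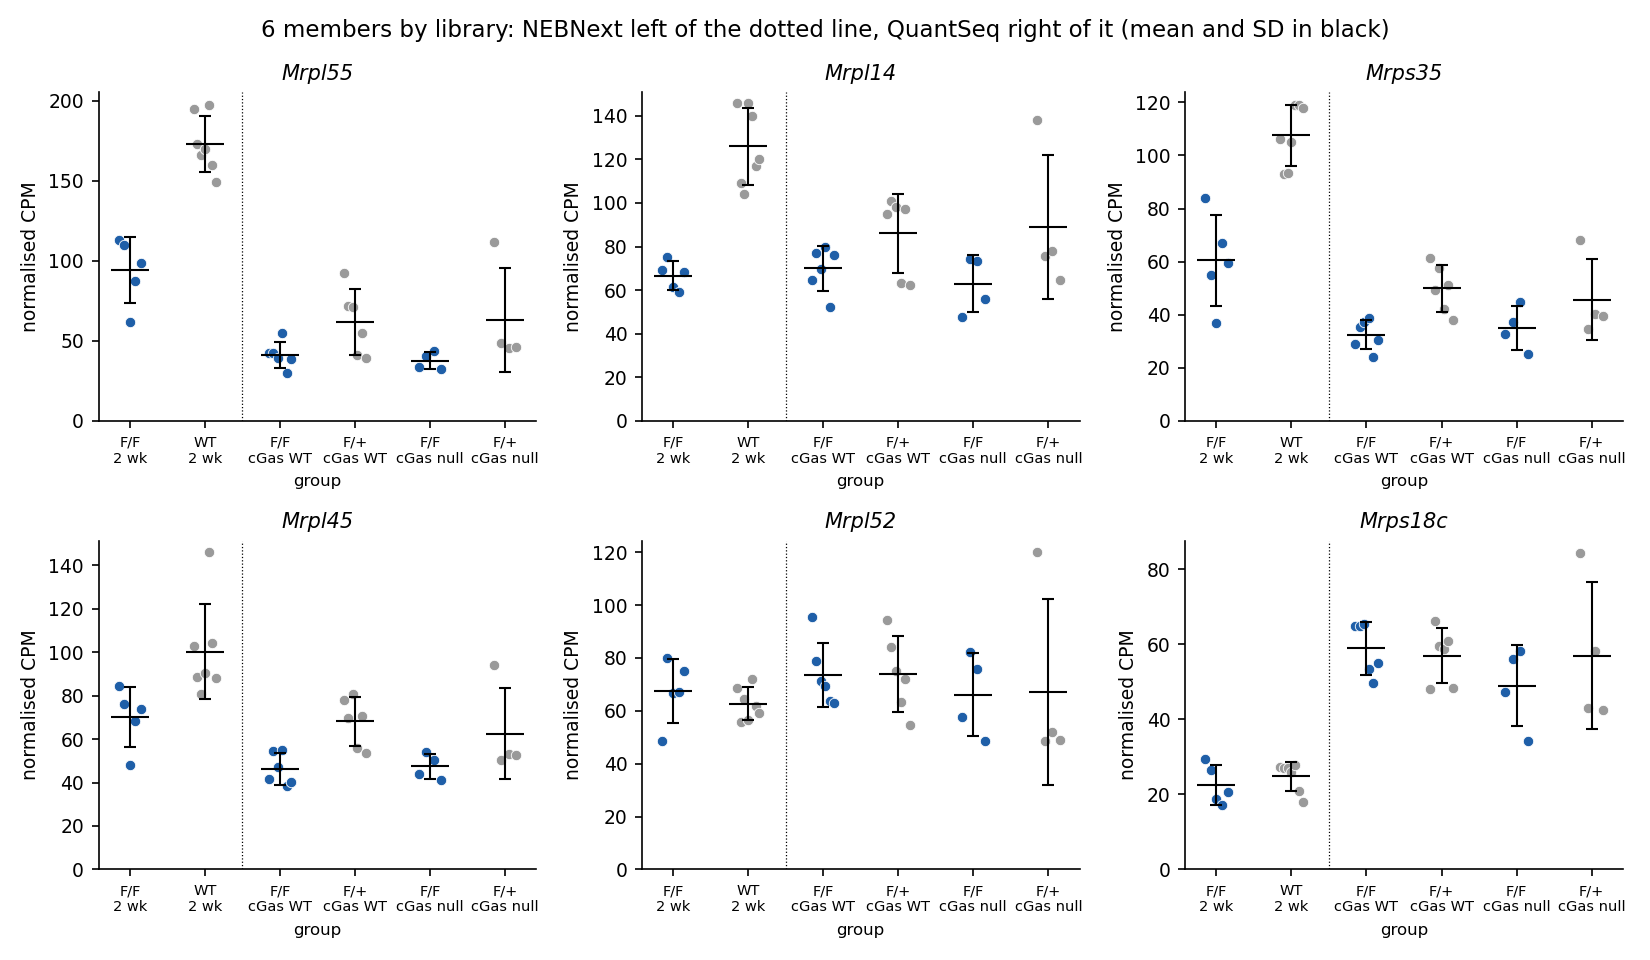
Normalised CPM of 6 members in each library, F/F in blue and wild type or F/+ in grey, with mean and SD in black, NEBNext left and QuantSeq right of the dotted line in each panel. The 5 F/F libraries lie below all 7 wild-type libraries in Mrpl55, Mrpl14 and Mrps35, and not in Mrpl45, Mrpl52 or Mrps18c, and replicate 1 of F/+ without cGas lies high in each panel.

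Without cGas, edgeR called 0 of 77 members between F/F and F/+ hearts, against 0.527% of all genes in either direction. At an unadjusted p under 0.05, 3 members were lower and 1 higher, against 3.32% of all genes lower, and DESeq2 and limma called 0. The medians were -0.24 for the large and -0.19 for the small subunit, and 73 of 77 members were negative. The large-subunit score was 5.30 ± 0.196 in F/F and 5.53 ± 0.303 in F/+ (SD, n = 4 each). F/+ replicate 1 stood apart at a score of 5.98, and without it the members' median was -0.08 and 56 of 77 were negative. Without F/F replicate 4 the median was -0.12 and 57 were negative. All 4 F/+ libraries without cGas were male, and among male libraries alone the median was -0.39. Every F/F library lay below every F/+ library in 2 members, Mrpl3 and Mrpl55, against 2.23% of all genes. Mrpl3, of bacterial descent, had 26.4, 24.7, 30.2 and 27.3 normalised CPM in F/F and 36.0, 34.6, 32.7 and 33.4 in F/+. Mrpl55 had 33.6, 40.5, 43.9 and 32.6 in F/F and 112, 48.4, 45.5 and 46.1 in F/+. Neither gene passed edgeR's test (adjusted p = 0.64 and 0.462), and 1 of 6 macrophage markers rose.

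Loss of cGas itself gave no called member. The F/F effect without cGas minus that with cGas was called for 0 of 77 members by edgeR, against 0% of all genes, with 0 at an unadjusted p under 0.05 and 0 by DESeq2 and limma. The median difference was 0.04, and it ran from -0.03 to 0.21 when single libraries were left out. Between cGas null and cGas +/+ hearts of F/F genotype, edgeR called 0 of 77 members, against 0% of all genes. There 0 members passed an unadjusted p under 0.05, DESeq2 and limma called 0, and the median was -0.07. It ran from -0.12 without cGas null replicate 3 to 0.01 without cGas null replicate 4. In F/+ hearts edgeR called 0, against 0% of all genes, and DESeq2 and limma called 0. There 4 were lower at an unadjusted p under 0.05, without the share of all genes at that threshold given here. The median was -0.11, and it ran from -0.32 without cGas null replicate 1 to -0.02 without cGas +/+ replicate 1. A count of 0 does not show that cGas leaves the members unchanged.

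The 2 kits were set side by side for the 75 members measured in both, F/F over wild type at 2 weeks in NEBNext and F/F over F/+ with cGas in QuantSeq, which share no library. Across members Pearson's r of the log2 fold changes was 0.70 and Spearman's rho 0.729, as a description over genes that share libraries. In both kits 72 of 75 members were negative, and in 66 the change was smaller in QuantSeq. The QuantSeq median log2 fold change over the 75 members was 0.625 times the NEBNext median. The kits differ in control genotype, read position and depth, so the sizes cannot be compared further. Of the 49 members lower in NEBNext the QuantSeq median was -0.32, with 20 at an unadjusted p under 0.05. Among the 28 not called it was -0.17, with 2. Mrpl55 and Mrps35 were far down in both kits, and Mrpl52 and Mrps18c lay near 0 in both. Other members differed between the kits. Mrpl14 and Mrpl9, at -0.92 and -0.75 in NEBNext, were each at -0.29 in QuantSeq, at the members' median there. Mrpl16 and Mrpl15, each at -0.52 in NEBNext, were each at -0.73 in QuantSeq. Between the QuantSeq effects with and without cGas, Pearson's r over the 75 members was only 0.206 and Spearman's rho 0.201.

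**Figure D5:**
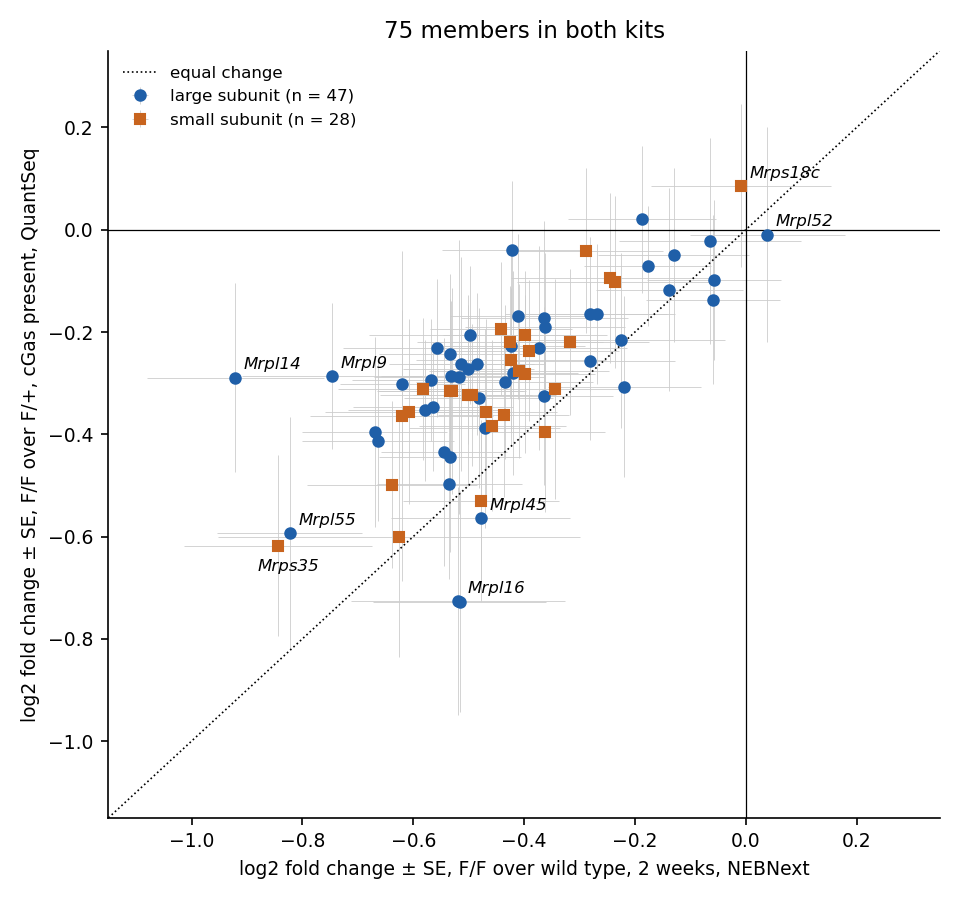
Log2 fold change ± SE of the 75 members in QuantSeq (F/F over F/+ with cGas, vertical) against NEBNext (F/F over wild type at 2 weeks, horizontal), with large-subunit genes in blue, small-subunit genes in orange and the dotted line marking equal change. Most members lie in the lower left above the dotted line, 66 of 75 with a smaller change in QuantSeq, and Mrpl52 and Mrps18c sit near 0 on both axes.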

How the data were processed

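PolyA RNA of perfused hearts was sequenced in 26 NEBNext and 20 QuantSeq 3′ libraries. Per the submitters' processing notes the aligner was STAR 2.7.9 and the build mm39. Which counter, strand setting and annotation they used is not stated there, so reads of overlapping genes cannot be told apart. The deposited table holds raw read counts per gene; no column lacked a sample. The authors' second table holds TPM for NEBNext, and for QuantSeq its deposited values equal CPM, each count over the library's total.

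Each kit was fitted once with edgeR 4.0.16 in R 4.3.3 (TMM, filterByExpr by group with a minimum count of 10, quasi-likelihood test, group plus sex, and at 2 weeks pool), over 15627 NEBNext and 14812 QuantSeq genes, with Benjamini-Hochberg adjustment over all genes and a threshold of 0.05. DESeq2 1.42.0, and limma 3.58.1 on log2(deposited value + 1), were alternatives (fold changes on a log2(value + pseudocount) scale understate those of low genes), as were pseudocount 0.1, library totals, totals without mitochondrially encoded genes, no filter on low counts, no sex term, single pools and leaving out each library. Lists under other scalings and male libraries alone were added after seeing the data. Normalised CPM uses TMM library sizes; error bars of counts cover the spread between libraries only. The fits were tested on simulated counts with known changes.

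Members, lists and tests were chosen with earlier results of these data known. Named with values were the 5 members per subunit with the smallest adjusted p, the largest changes, the 3 most abundant per subunit, those nearest the limit, members with set roles, and the leading genes of each list, up to 3, of which 1 is not reported here. Mrpl52 was named after its values were seen.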

Additional observations from a re-analysis of the deposited data

Results flagged for a closer look

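Of 92 groups of values tested for a library far from the rest, 8 held one, and chance gives about 1 in 20. Replicate 3 of F/F at 2 weeks had the lowest small-subunit score, 5.082, far from the other 4. Replicate 4 of the same group had the lowest difference between the large- and small-subunit scores, 0.2996. In F/+ hearts without cGas, replicate 1 stood above the other 3 in Mrpl55 (112 normalised CPM), Mrps35 (68.3), Mrpl45 (94.0) and Mrpl52 (120). Mrpl55 was highest, and apart, in wild-type replicate 5 of 1 week at 264 normalised CPM, as was Mrpl45 in wild-type replicate 5 of 2 weeks at 146.

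The F/F effect differed between 2 weeks and 1 week by the interaction test in 11 members. The 2-week minus the 1-week log2 effect was -0.88 for Mrpl14, -0.85 for Mrpl9, -0.76 for Mrpl55, -0.71 for Mrps27, -0.70 for Mrpl34, -0.65 for Mrpl2, -0.65 for Mrps16, -0.58 for Mrps23, -0.58 for Mrpl38, -0.58 for Mrps11 and -0.57 for Mrps12. Time and pool cannot be told apart here.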

How the results depend on the processing

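Of 618 values recomputed under alternatives, 564 stayed within the spread or within 1.5 times. Many of these are counts of 0 that stayed 0, so the 564 say little about how stable the 2-week calls were. At 2 weeks 14 members were lower with library totals, 16 with totals without mitochondrially encoded genes, 11 and 10 with limma at pseudocounts 1 and 0.1, and 4 in pool KIUC033 alone. Under the first 4 settings the medians were -0.23, -0.21, -0.16 and -0.17 for the large subunit, and -0.18, -0.16, -0.14 and -0.14 for the small. At 1 week the large-subunit median was 0.10 with totals and 0.12 with limma at both pseudocounts, and the small-subunit median 0.16 and 0.17 with limma, against -0.06 and -0.03 with TMM, so these medians changed sign, with no member called. The count of members with a lower effect at 2 weeks than at 1 week was 4 with either totals, 6 with no filter, 7 and 5 with limma at pseudocounts 1 and 0.1, 5 with no sex term, and 2 to 21 with single libraries left out. With cGas, F/F against F/+ gave 0 lower with either totals or limma, 7 with no filter, 6 with DESeq2, 1 with male libraries alone (a setting chosen after seeing the data) and 0 to 7 with single libraries left out. In F/+ hearts, cGas null against cGas +/+ gave 1 lower with no filter. At 11 days 4 members were higher without wild-type replicate 1, where 114 of all 15674 genes were higher. No paired analysis was possible because the labels give libraries no shared replicate numbers and the numbers used here only name libraries. Depth limits the scarce member Mrpl23, and Mrps18b in QuantSeq. Mrps36 had an SE of 0.33 at 2 weeks with a mean of 19.4 CPM in NEBNext, while Mrps33 had 0.16 with 13.4 CPM. The source of the spread of Mrps36 was not tested.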
